A study of Homo sapiens with 2 samples.

Results

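Keratins, the proteins of the epithelial intermediate filament, were examined at the level of RNA in a human breast cancer line that the labels call 468, described as epithelioid and grown in L15 medium with serum. The 10 genes considered were listed by symbol, and all 10 of 10 were present among the 13017 genes given for both libraries. They comprise 4 keratins of simple epithelium (KRT7, KRT8, KRT18 and KRT19), 4 of basal or stratified epithelium (KRT5, KRT6B, KRT16 and KRT17), and KRT23 and KRT80, which belong to neither group. One library came from cells transfected with a Smart Silencer, a commercial oligonucleotide mixture, against the antisense RNA THAP7-AS1, and its genotype label reads THAP7-AS1 knockdown. The other came from cells whose genotype label reads si-NC control. Because the treatment label is the same in both samples and names the silencer, the genotype label set the groups. Both were collected at 48 h. There was 1 library per group, of a single cell line, so no difference could be checked against replicates or tested.

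A keratin filament is built from heterodimers, each of 1 type I (acidic) and 1 type II (basic to neutral) chain, and a chain without a partner is degraded. Simple epithelia make mainly KRT8 with KRT18, joined by KRT7 and KRT19 in glands and ducts. Basal cells of stratified epithelium make KRT5 with KRT14, and wounded or hyperproliferative epithelium adds KRT6, KRT16 and KRT17. In the breast, KRT8, KRT18 and KRT19 mark luminal cells, while KRT5, KRT14 and KRT17 mark basal cells and tumours called basal-like.

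FPKM values are fragments scaled by gene length and by the fragments of the library. They summed to 213442 in the knockdown and 213888 in the control. Depth was estimated at 11100000 and 10900000 fragments, within a range confined by the window of values used. THAP7-AS1 was not analysed here, so its knockdown could not be checked from its own level. THAP7, which overlaps it on the opposite strand, was at 8.38 FPKM in the knockdown and 2.71 in the control, and with strandedness not stated the reads of both cannot be told apart. Of 10 general epithelial markers, 9 reached 1 FPKM on average, and the 10 summed to 508 FPKM in the knockdown and 489 in the control. The most abundant were EPCAM and CLDN3, given further on, and the membrane protease gene ST14, at 46.9 and 46.0 FPKM. CLDN4, a tight junction claudin named after its value was seen, was the exception, at 0.233 and 0.303 FPKM. Of the markers of other cells, 3 of 9 for fibroblasts summed to 1.74 and 2.24 FPKM, 4 of 9 for leukocytes to 15.4 and 14.6, and 1 of 7 for endothelium to 1.07 and 1.15. The leukocyte genes CD14, CD68 and LYZ were at 10.3 and 9.50, 3.296 and 3.245, and 1.25 and 1.39 FPKM, and the endothelial receptor KDR made up the endothelial sum. Among the fibroblast genes, FAP was at 0.859 and 1.37 FPKM and COL1A1 at 0.866 and 0.874. PDGFRB, a fibroblast and pericyte receptor, was at 0.012 FPKM in the knockdown library and listed at 0 in the control library.

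Keratin genes are close relatives, and stretches of their coding sequence decide how well a read can be assigned to one of them. In the transcript models of GENCODE release 29 (GRCh38, sense strand, numbered from the start codon), the 10 genes lie on chromosomes 12 and 17. All 5 type II members are on chromosome 12 and 4 of the 5 type I members on chromosome 17, whereas KRT18, a type I gene, lies on chromosome 12 as the direct neighbour of its partner KRT8 among protein-coding genes in the RefSeq order. The first 90 coding bases of KRT6B are shown because they are the same, base for base, in KRT6A and KRT6C:
KRT6B: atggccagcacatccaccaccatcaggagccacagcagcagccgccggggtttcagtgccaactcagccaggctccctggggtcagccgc
KRT6A: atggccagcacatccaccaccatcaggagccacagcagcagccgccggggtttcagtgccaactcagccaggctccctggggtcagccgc
KRT6C: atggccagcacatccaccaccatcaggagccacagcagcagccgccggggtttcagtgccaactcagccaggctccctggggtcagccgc

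The most alike 90 bases of the type I basal genes, which encode the start of the helical rod, are coding bases 358 to 447 of KRT16, 352 to 441 of KRT14 and 259 to 348 of KRT17. KRT14 had 0 differing bases from KRT16 there, and KRT17 had 5, marked by capitals:
KRT16: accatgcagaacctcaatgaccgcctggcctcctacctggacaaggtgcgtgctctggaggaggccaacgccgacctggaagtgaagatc
KRT14: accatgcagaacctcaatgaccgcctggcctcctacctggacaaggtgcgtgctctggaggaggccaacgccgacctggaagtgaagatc
KRT17: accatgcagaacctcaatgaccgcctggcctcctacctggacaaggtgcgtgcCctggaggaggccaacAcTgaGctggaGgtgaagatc

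Over whole coding sequences, pairs of type II members were 58.3% to 81.2% identical, with KRT5 and KRT6B the closest pair. Pairs of type I members were 54.0% to 76.6% identical, with KRT16 and KRT17 the closest. A type I and a type II member shared 45.7% to 52.6%. Outside the 10 genes, KRT6B was 98.5% identical to KRT6C and 97.5% to KRT6A, and KRT16 was 87.7% identical to KRT14.

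The share of coding words of 50 bases that also occur in a transcript of another gene, on either strand, was highest in KRT6B, at 62.5%. It was 57.9% in KRT18 and 48.3% in KRT8, genes with many processed pseudogenes. Part of the KRT18 figure came from KRT8 itself, since 26.2% of KRT18 words were found on the opposite strand of an annotated KRT8 transcript. KRT16 shared 23.9%, KRT17 17.1% and KRT7 13.5%, the last mostly with KRT7-AS on the opposite strand. KRT23, KRT5, KRT19 and KRT80 shared 7.87%, 5.74%, 2.08% and 1.22%. With words of 100 bases the shares fell to 32.3% in KRT6B, 20.4% in KRT18 and 9.69% or less in the others. The read length is not given in the sources used here, so the values of KRT6B, KRT16, KRT8 and KRT18 are uncertain to an extent that was not tested.

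**Figure D1:**
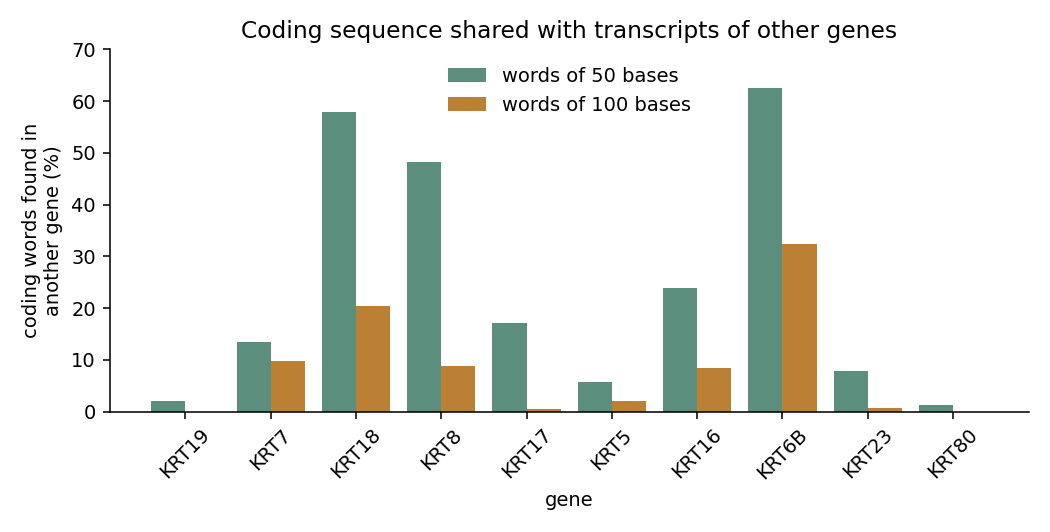
Share of each gene's coding words of 50 bases (green) and 100 bases (orange) that also occur in a transcript of another gene in GENCODE release 29, in percent, for the 10 keratin genes. KRT6B stands highest at 62.5% and 32.3%, and KRT80 and KRT19 are near 0.

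KRT19, the smallest keratin, with the shortest coding sequence of the 10 genes (1203 bases), had the highest level of the 10. It was at 1106 FPKM in the knockdown and 1057 in the control, place 13 of 13017 genes in each. The log2 ratio of knockdown to control, computed throughout on FPKM + 1, was 0.06. KRT19 stood 5.42 and 5.79 times above the next keratin, KRT7, in the knockdown and control libraries.

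KRT7, KRT18 and KRT8 formed a second tier between 166 and 204 FPKM. KRT7, the type II keratin of glandular ducts, was at 204 FPKM in the knockdown and 183 in the control, giving a log2 ratio of 0.16. KRT18, the type I partner of KRT8, was at 201 and 166 FPKM, giving a log2 ratio of 0.27. KRT8 was at 178 and 167 FPKM, giving a log2 ratio of 0.09. All 3 were higher in the knockdown library, by 21.4, 34.2 and 11.2 FPKM, and none by as much as 1.5-fold. In RNA from a whole culture, more cells making a keratin and more of its RNA per cell cannot be told apart.

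Among the basal keratins, KRT17, a type I chain of basal and wounded epithelium, had the highest level. It was at 77.4 FPKM in the knockdown and 76.9 in the control. Its log2 ratio of 0.01 was the lowest of the 10 genes and fell below 0 when the libraries were centred or rescaled, to between -0.01 and -0.03. KRT5, the type II keratin of basal cells, was at 64.0 and 55.6 FPKM, giving a log2 ratio of 0.20.

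KRT16, a type I keratin known for its induction in wounds and psoriasis, was at 28.8 FPKM in the knockdown and 20.9 in the control. Its log2 ratio of 0.44, a 1.36-fold higher value, was the highest of the 10 genes. It moved from place 1953 of all genes in the control library to place 1377 in the knockdown library. KRT6B, a type II partner of KRT16, was at 13.2 and 13.0 FPKM, giving a log2 ratio of 0.02. Summing KRT6A, KRT6B and KRT6C, among which reads may be divided, gave 14.5 FPKM in each library.

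KRT23, a type I keratin of glandular epithelium, was at 87.0 FPKM in the knockdown and 71.9 in the control, giving a log2 ratio of 0.27. KRT80, a type II keratin described at desmosomes, was at 11.0 and 10.1 FPKM, the lowest level of the 10 genes, with a log2 ratio of 0.12. In both libraries KRT19 stood more than 100-fold above KRT80, at 100.2 and 105 times its level.

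**Figure D2:**
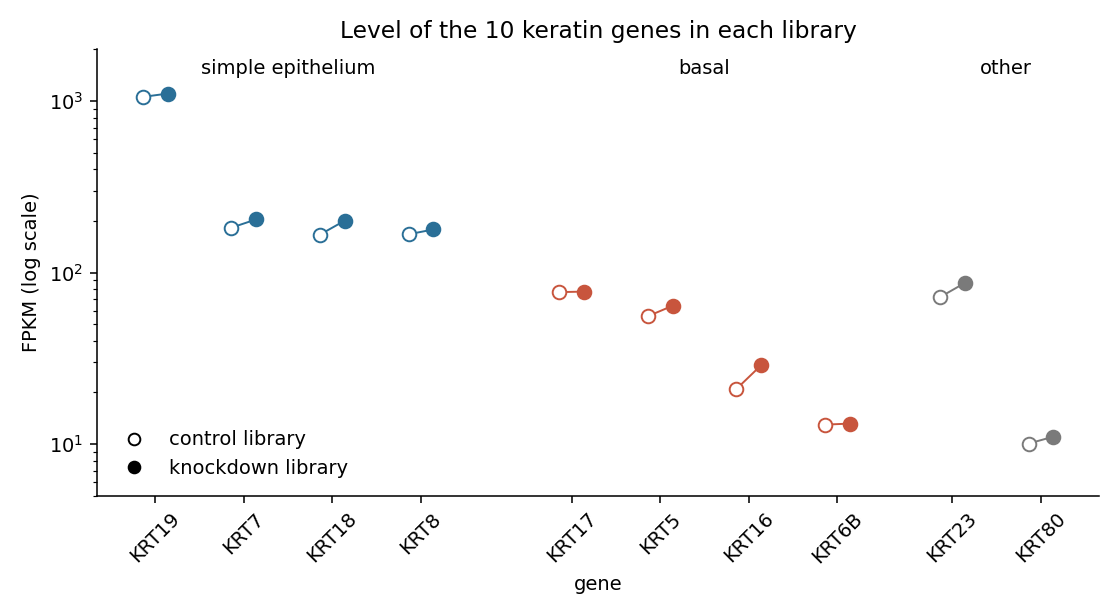
FPKM of each of the 10 genes on a log axis, with the control library as open and the knockdown library as filled circles, grouped into simple-epithelium (blue), basal (red) and other (grey) keratins. The 4 simple keratins lie at 166 FPKM or above in both libraries and the 4 basal ones at 77.4 or below.

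The order of levels held at 6 of 10 places between the libraries. KRT19 and KRT7 led and KRT5, KRT16, KRT6B and KRT80 closed it in both. KRT8 and KRT18 were level in the control library, at 167.1 and 166.4 FPKM, and changed places in the knockdown library. KRT17 and KRT23 also changed places. Without replicates, whether neighbours in this order differ beyond the spread between cultures was not tested.

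All 10 genes reached 1 FPKM on average, and 0 of 10 differed 2-fold between the libraries. Of the 10925 genes that did so, 1.27% differed at least 2-fold, 0.604% being higher and 0.668% lower in the knockdown library. At 1.5-fold, again 0 of 10 keratins passed, where 5.45% of all genes did, 2.98% higher and 2.46% lower. All 10 ratios were above 0, against 53.1% over all genes. Their median was 0.14, beside 0.02 over all genes, and 8 of the 10 ratios stayed above 0 under every scaling and pseudocount tried. The exceptions were KRT17, as given above, and KRT19, which came to 0 with quantile normalization, a method that gives genes of equal rank the same value. The share of all genes that kept their sign in this way was not computed, so the 8 of 10 do not set keratins apart. The genes were picked with earlier results of these data known and lie in 1 family, so their common direction is a description.

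The estimated counting error, which covers sampling of fragments only and holds for the ratio without the added 1, ran from 0.016 on the log2 scale for KRT19 to 0.11 for KRT6B. The ratio was more than 2 times that error for 7 of 10 genes, the exceptions being KRT17, KRT6B and KRT80. A wider yardstick was the spread of ratios among the 200 genes nearest in level, as an SD from the median absolute deviation. By that measure, with distance taken from 0, 5 of 10 keratins lay beyond 1 SD, namely KRT5, KRT7, KRT16, KRT18 and KRT23. KRT5 was barely past it, at a ratio of 0.199 against an SD of 0.195. Centred on the median of all genes, KRT5 fell to 0.184. KRT7, at 0.159 against an SD of 0.135, fell to 0.085 with quantile normalization. The share of all genes past 1 SD, or past 2 times the counting error, was not computed, so neither count sets keratins apart. KRT16 lay farthest out, at 2.36 SD, followed by KRT18 at 1.93 and KRT23 at 1.69. The ratio of KRT16 was above that of 94.3% of all genes tested, and that of KRT17 above 48.9%.

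**Figure D3:**
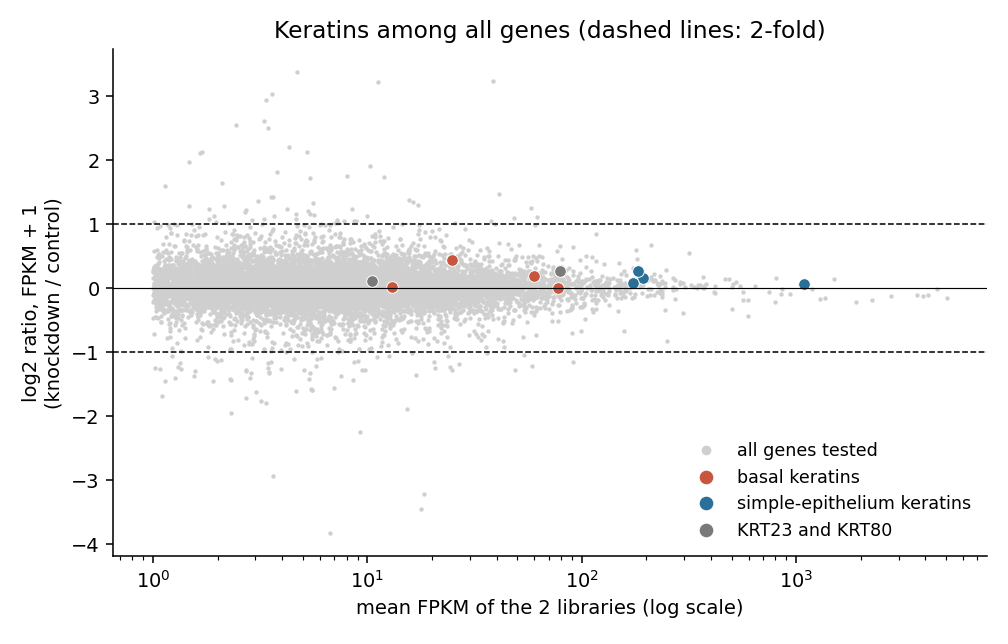
Log2 ratio of knockdown to control on FPKM + 1 against the mean FPKM of both libraries (log axis) for 10925 genes in grey, with the 10 keratins in colour and dashed lines at 2-fold. The keratins lie between 0.01 and 0.44, inside the 2-fold lines, and to the right of the plot, from 10.5 to 1082 FPKM.

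The libraries were next compared in the balance between basal and simple-epithelium keratins. FPKM is per length, so levels can be summed across genes. The 4 simple keratins summed to 1689 FPKM in the knockdown and 1574 in the control, and the 4 basal ones to 183 and 166. Simple keratins were thus 9.21 times the basal ones in the knockdown and 9.46 times in the control. The basal share of both groups was 9.79% and 9.56%, a difference of 0.23 percentage points. It lay within 0.47 points, the 95% limit of the estimated counting error, a wider measure than the single error given above for each gene. That difference rested on single genes: it was -0.08 without KRT16, -0.45 without KRT19 and 0.03 without KRT5, but 0.52 without KRT17 and 0.40 without KRT18. With every listed basal and simple keratin it was 0.48. The limit of 0.47 was worked out for the main set of genes only, so these other values were not compared with it.

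In ratio, the basal group had a median log2 ratio of 0.11, from 0.01 in KRT17 to 0.44 in KRT16. The simple group had a median of 0.13, from 0.06 in KRT19 to 0.27 in KRT18. The median of the basal group minus that of the simple group was -0.02, and the mean gave 0.02. The ranges of both groups overlapped, with the simple group lying wholly inside the range of the basal group.

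Of the summed FPKM of the 10 genes, which was 1970.4 in the knockdown and 1822 in the control, KRT19 alone made up 56.1% and 58.0%. KRT7 made up 10.4% and 10.0%, KRT18 10.2% and 9.14%, and KRT8 9.05% and 9.17%. The basal group held 9.30% and 9.13%, and KRT23 with KRT80 4.97% and 4.50%. The 10 genes took 0.923% of all FPKM in the knockdown and 0.852% in the control.

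**Figure D4:**
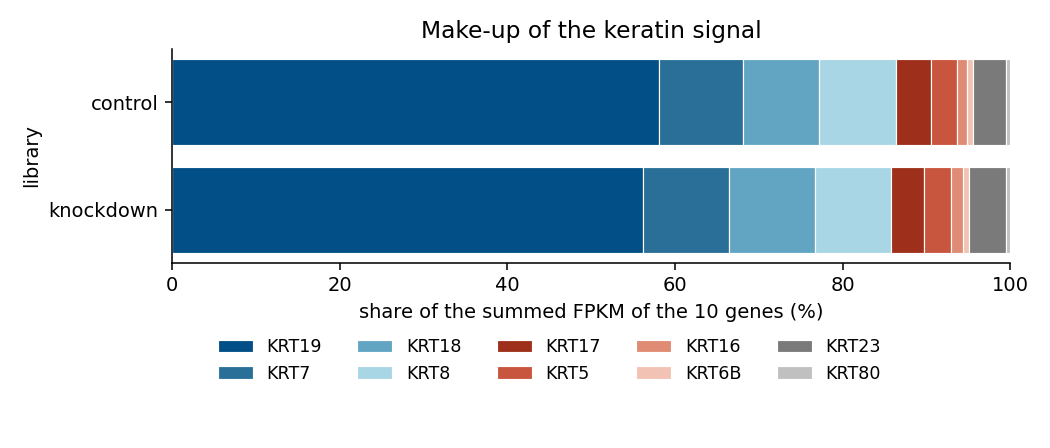
Share of each gene in the summed FPKM of the 10 keratin genes, in percent, for the control library (top bar) and the knockdown library (bottom bar). The simple keratins (blue) fill 86.4% and 85.7% of the bars, most of it KRT19, and the basal ones (red) 9.13% and 9.30%.

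Because filaments need both types in equal amount, type I and type II levels were set side by side. Type I members (KRT16, KRT17, KRT18, KRT19 and KRT23) summed to 1499.8 FPKM in the knockdown and 1394 in the control, and type II members (KRT5, KRT6B, KRT7, KRT8 and KRT80) to 471 and 428. Among these members type I RNA was therefore 3.19 times type II RNA in the knockdown and 3.25 times in the control. These sums leave out other listed keratins, among them the type II gene KRT81, at 90.2 and 71.6 FPKM. KRT19 carried this excess. Without it the ratio was 0.837 and 0.785, so that type II exceeded type I.

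The known partners KRT8 and KRT18 stood at a ratio of 0.889 in the knockdown and 1.004 in the control. KRT6B stood at 0.457 times KRT16 in the knockdown and 0.620 times in the control. KRT5 was 10.8 times KRT14, its partner in basal cells, in the knockdown and 17.1 times in the control. In these 3 pairs the type I gene had the higher ratio of knockdown to control, but other pairs went the other way. KRT7 stood at 0.185 times KRT19 in the knockdown and 0.173 times in the control, and KRT6B at 0.170 and 0.169 times KRT17. Over the sums, the log2 ratio of FPKM without the added 1 was 0.14 for type II and 0.11 for type I.

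Of the 23 keratin genes listed in the tables, 13 were outside the 10, and 7 of these reached 1 FPKM on average. KRT20, a simple keratin of gut epithelium, was not analysed here. The highest ratios among the 7 belonged to basal keratins. KRT14, the type I partner of KRT5, was at 5.94 FPKM in the knockdown and 3.25 in the control, giving a log2 ratio of 0.71. KRT15, another type I keratin of basal cells, was at 8.50 and 5.05 FPKM, giving a log2 ratio of 0.65. These lay 2.77 and 2.81 SD out among genes of their level, farther than any of the 10, and both passed 1.5-fold but not 2-fold. KRT14 rests on an estimated 110 fragments in the knockdown and 59 in the control. Of its coding words of 50 bases, 24.7% also occur in a transcript of another gene, so its value is uncertain as well.

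KRT81, a type II hair keratin, was at 90.2 FPKM in the knockdown and 71.6 in the control, a level above that of KRT23 or KRT17 in the knockdown library. The log2 ratio of KRT81 was 0.33. Its neighbour KRT86, with which it shares 49.1% of coding words of 50 bases, was at 1.98 and 2.05 FPKM, the 1 of 17 tested keratins below 0. KRT4 and KRT10, known from the upper layers of mucosa and skin, were at 16.2 against 12.6 FPKM and 18.0 against 14.1. Their log2 ratios were 0.34 and 0.33. KRT38, a type I hair keratin, was at 1.46 against 0.630 FPKM, giving a log2 ratio of 0.60, and was the third to pass 1.5-fold. Over the 7 tested keratins outside the 10, the median log2 ratio was 0.34, beside 0.14 for the 10. At 1.5-fold, 3 of the 7 were higher, beside 2.98% of all genes.

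The other 6 were under 1 FPKM on average. KRT6A was at 0.795 FPKM in the knockdown and 0.973 in the control, KRT6C at 0.589 and 0.543, KRT75 at 0.723 and 0.525 and KRT9 at 0.725 and 0.397. KRT34 was at 0.051 and 0.098 FPKM, and KRT33B was listed at 0 in both. With every tested basal keratin included, the basal median was 0.32 on the log2 scale over 6 genes, while the simple group kept the same 4 tested genes and a median of 0.13. The genes added here to the basal members were KRT14 and KRT15, at 0.71 and 0.65. With KRT6A and KRT6C included too, which lie under 1 FPKM, the basal median minus the simple median was -0.0052. KRT6A rests on an estimated 20 fragments in the knockdown and 25 in the control, and KRT6C on 15 and 14. The added 1 also draws the ratios of such low genes toward 0, so this value does not decide whether the groups differ.

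**Figure D5:**
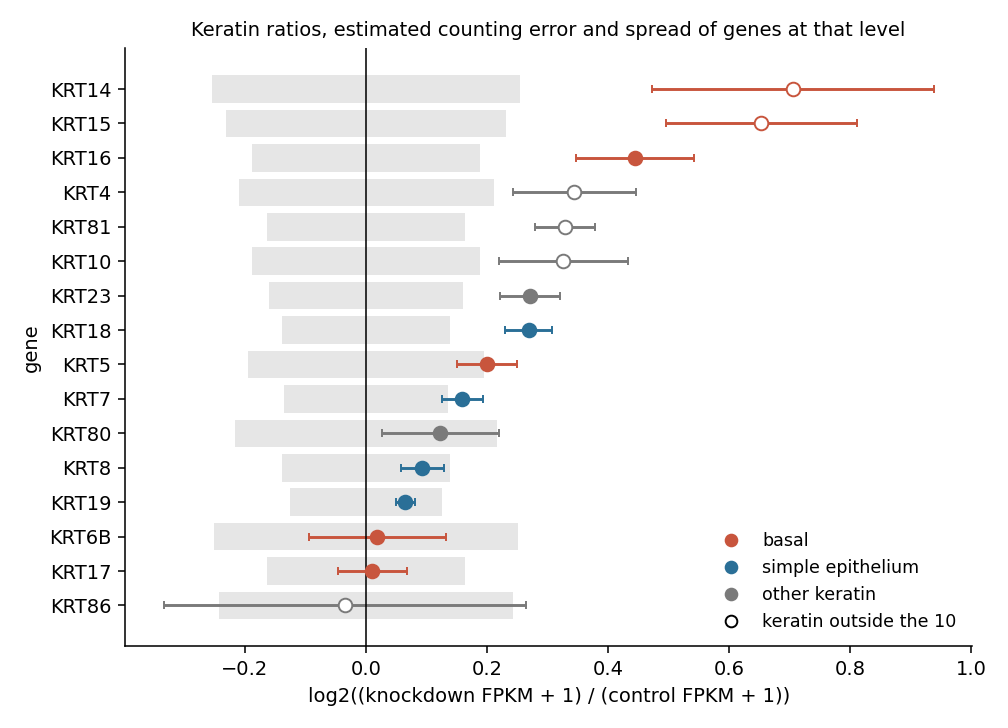
Log2 ratio of knockdown to control on FPKM + 1 for 16 tested keratins with estimated fragments, with the estimated counting error as bars. Grey marks 1 SD, on either side of 0, of the ratios of the 200 genes nearest in level. Filled circles are the 10 genes and open circles other keratins; KRT14 (0.71) and KRT15 (0.65) lie highest and KRT86 alone lies below 0.

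Genes that work with keratins were examined in lists chosen by function. Over all genes, 53.1% were above 0 and the median was 0.02, beside which the counts of each list are to be read. The direction within a list was not tested. These lists together held 99 tested genes besides the keratins. On FPKM + 1, 0 of them differed 2-fold and 3 differed at least 1.5-fold, beside 1.27% and 5.45% of all genes. The 3 were PERP, TGM1 and CRYAB, all higher in the knockdown library. TGM1 and CRYAB are named because they passed. CRYAB, at a log2 ratio of 0.99, was just short of 2-fold, and without the added 1 its values were more than 2-fold apart. Filaments end at desmosomes and hemidesmosomes, and of 16 tested genes of those junctions 11 were above 0, with a median of 0.10. DSP, the desmoplakin that anchors keratin, was at 151 FPKM in the knockdown and 145 in the control. PERP, a desmosomal membrane protein, was at 62.8 and 38.8 FPKM, giving a log2 ratio of 0.68. PLEC, the cytolinker plectin, was at 44.2 and 40.5 FPKM.

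Of 18 tested keratin partners, chaperones and filament regulators, 13 were above 0, with a median of 0.07. HSPA8 and HSPB1, chaperones that bind filaments, were at 306 against 287 and 270 against 265 FPKM, and the 14-3-3 protein SFN at 138 against 147. Among 24 tested transcription factors known to act on keratin genes or epithelial identity, 16 were above 0 and the median was 0.03. CEBPB was at 109 against 112 FPKM, the epithelial ETS factor EHF at 61.8 against 54.7 and JUNB at 54.1 against 53.6.

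Among the 8 tested genes of other intermediate filaments, mean levels ran from 65.0 FPKM in LMNB1 down to 1.35 in INA. The nuclear lamins LMNB1, LMNA and LMNB2 were at 62.0 against 68.0, 37.2 against 32.8 and 32.7 against 32.4 FPKM. VIM, the mesenchymal filament, named after its value was seen, was at 2.29 FPKM in the knockdown and 1.57 in the control, below each of the 10 keratins. Of the 8 tested genes of this list 6 were above 0, with a median of 0.10.

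Genes of squamous differentiation lay on the other side of 0, with 7 of 9 tested genes below it and a median of -0.14, although their mean was 0.00014. S100A7, S100A9 and KLK5, all abundant in stressed or cornifying epithelium, were at 1225 against 1366, 738 against 851 and 224 against 247 FPKM. TGM1, the transglutaminase that crosslinks the cornified envelope, went the other way, at 4.28 against 2.51. So did CNFN, named after its value was seen, at 43.0 against 30.1 FPKM, giving a log2 ratio of 0.50.

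Finally, other lineage genes of the breast were set beside the keratins. Of 13 tested basal lineage genes 7 were above 0, with a median of 0.0023 that fell to -0.01 when the libraries were centred or rescaled. EGFR, a receptor often high in basal-like tumours, was at 258 FPKM in the knockdown and 336 in the control. VGLL1 was at 82.5 against 69.2 FPKM, ID4 at 26.3 against 22.8 and the small heat shock protein gene CRYAB at 8.72 against 3.89. Of 14 tested luminal lineage genes 11 were above 0, with a median of 0.19, beside 53.1% and 0.02 over all genes. EPCAM was at 232 against 224 FPKM, the claudin gene CLDN3 at 91.4 against 83.4 and the ETS factor SPDEF at 85.0 against 71.5.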

How the data were processed

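RNA of 2 samples was sequenced. Per the file headers, the deposited values are FPKM per gene; the tools, per the submitters' processing notes, were HISAT2 2.0.5, StringTie and cutadapt, with build hg19. Annotation, strandedness and read length were not stated in the sources used here. StringTie divides reads between like genes by estimate. Symbols were found for 12746 of 13017 genes by identifier.

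Log2 ratios used FPKM + 1, which understates the change of low genes, and counts took genes averaging 1 FPKM or more. With 1 library per group, 2-fold stood in for a test. The genes named are the 10 keratins, every other listed keratin, and the 3 most abundant genes, with any 2-fold ones, of each list. CLDN4, VIM, TGM1, CNFN and CRYAB were added after their values were seen. The members and lists were chosen with earlier results of these data known. Depth was estimated from values times length, kept only between 80 and 100, of 14 and 10 single-transcript genes, and fragments from principal transcript length. That window was chosen and itself confines the estimate, so depth, fragments and counting errors are approximate. Coding sequences were aligned with MAFFT 7.526. Python 3.11.15, numpy 2.4.6, pandas 2.3.3 and matplotlib 3.10.9 were used. The calculation was run on simulated data with known changes, a check that set no requirement on recovery at 2-fold, the rule used here.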

Additional observations from a re-analysis of the deposited data

How the results depend on the processing

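No paired analysis was possible because each group has 1 library. Of 60 values of the 10 keratins under other pseudocounts or scalings, 55 stayed above 0 and moved by less than the spread of genes at their level, and KRT19 (0.065) came to 0 with quantile normalization. The other 4 were of KRT17 (0.01), at -0.0052 centred, -0.031 with quantile normalization, -0.0070 rescaled without the 100 most abundant genes and -0.0063 without mitochondrially encoded genes. The same count was not made over all genes. Basal minus simple, -0.017, turned to 0.034 with quantile normalization, 0.022 with the mean, 0.073 without KRT6B or KRT17 and 0.016 without KRT7 or KRT18. The difference in basal share, 0.23 points, became -0.076 without KRT16 and -0.45 without KRT19. It was 0.52 without KRT17 and 0.48 with every listed basal and simple keratin. Type II to type I, 0.030 on the log2 scale, became -0.093 without KRT19 and 0.055 with every listed type I and type II keratin. The basal lineage median, 0.0023, became -0.013 centred, -0.010 with quantile normalization, -0.011 with either rescaling and -0.054 without the filter. Genes at least 2-fold apart, 139, became 266 with a pseudocount of 0.1, 33 with 5, 67 with a mean of at least 5 FPKM, 595 at 1.5-fold and 35 at 3-fold; by construction stricter settings take fewer. In the gene lists around the keratins, 0 became 1, which was CRYAB, with a pseudocount of 0.1 and 3 at 1.5-fold. The cause of other changes was not tested. Depth limits KRT6B and KRT16 most of the 10, and no setting measures the spread between cultures.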
